A study of Mus musculus with 6 samples.

Results

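The mouse orthologs of 30 genes mutated in dominant or recessive inherited ataxias were examined in whole cerebellum, leaving out ion channel and calcium store genes. They were picked by gene symbol from the 53746 genes of the count table, and all 30 were found. No measured value entered the choice, but earlier results of these data were known when it was made. The cerebella came from 6 mice at 2 months of age, 3 of the genotype N153SLSL/LSLPcp2-cre (Pcp2-cre mice) and 3 of the genotype N153SLSL/LSL (control mice). Both genotypes carry on both chromosomes a knockin allele of *Sting1* with the activating N153S substitution behind a Lox-STOP-Lox cassette, and the control mice have no Cre. In the Pcp2-cre mice the *Pcp2* promoter drives Cre in Purkinje cells, so the mutant STING protein is made in these neurons while the tissue sequenced holds every cerebellar cell type. Mice 1 and 2 of each genotype were labelled male and mouse 3 female, and nothing was pooled.

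Inherited ataxias are disorders of balance and coordination in which Purkinje cells, the only output neurons of the cerebellar cortex, are often among the cells that are lost. The genes behind them share no single pathway. Some carry a run of CAG codons that lengthens into a toxic glutamine tract, others a repeat in an intron or other noncoding sequence, and others lose a function in protein quality control, mitochondria, lipid synthesis or DNA repair. Most are active in many cell types, although the disorders are seen foremost in the cerebellum. The comparison asked whether the whole-cerebellum RNA of these genes differed when a STING mutant acted in Purkinje cells of mice that carry no ataxia mutation in them.

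The glutamine repeat genes are shown first, since the mutation in people is the repeat itself. For 5 of the 6, the longest uninterrupted run of CAG or CAA codons in the mouse coding sequence is printed in capitals with 9 bases on each side, on the coding strand of GRCm39 with Gencode M39 transcripts. The run was sought over the whole coding sequence and was not aligned to the human repeat, so it need not lie at the same place. *Tbp* had the longest run, with 13 codons at chr17:15724653-15724691 on the plus strand, of which 4 were CAA. *Atxn3* had 6 codons at chr12:101892822-101892839 and *Atxn7* 5 codons at chr14:8456593-8456607, both on the minus strand. *Atxn1* at chr13:45720556-45720564 on the minus strand and *Atxn2* at chr5:121949009-121949017 on the plus strand had runs of 3 codons. These began at codon 444 of 791 in *Atxn1* and at codon 1129 of 1286 in *Atxn2*. Each of these runs lay inside 1 coding exon.
Atxn1: ctgagcggcCAGCAGCAAgcaatcacc
Atxn2: cccaccggaCAGCAGCAAagccagcat
Atxn3: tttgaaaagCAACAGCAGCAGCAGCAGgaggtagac
Atxn7: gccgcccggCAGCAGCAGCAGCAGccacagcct
Tbp: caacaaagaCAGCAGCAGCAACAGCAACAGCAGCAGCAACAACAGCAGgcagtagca
Of these 5 tracts only that of *Tbp* was longer than 6 codons.

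The genes whose human repeat lies in an intron or other noncoding sequence were searched for the same unit across the whole mouse gene. On the gene strand the longest run was 1 copy of ATTCT in *Atxn10*, 1 copy of TGGAA in *Bean1*, 1 copy of GGCCTG in *Nop56*, 2 copies of ATTTC in *Dab1*, 2 copies of AAGGG in *Rfc1* and 4 copies of CAG in *Ppp2r2b*. On the other strand the longest run was 2 copies in *Atxn10*, *Bean1*, *Dab1* and *Rfc1*, 1 copy in *Nop56* and 5 copies in *Ppp2r2b*. None of the 6 mouse genes therefore held an array of the unit searched longer than 4 copies on the gene strand or 5 on the other.

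Deposited FPKM, fragments scaled to exon length and library size, was used to order the genes by level. *Eef2*, the elongation factor that moves the ribosome along the message, was the most abundant of the 30 genes at 275.3 ± 6.57 FPKM in control mice (SD, n = 3). *Stub1*, a ubiquitin ligase that works with chaperones, had a control mean of 68.5 FPKM, *Syne1*, a giant protein of the nuclear envelope, 66.5 FPKM, *Atxn10* 65.9 FPKM and *Fat2*, a giant cadherin known from granule cell axons, 62.9 FPKM. *Stub1*, *Syne1* and *Atxn10* overlapped in their control values as neighbours in this order. At the low end stood *Ccdc88c* at 2.82, *Bean1* at 2.80 and *Atm* at 2.72 FPKM, whose control values also overlapped. The median over the 30 genes was 12.02 FPKM, and 18 lay at 10 FPKM or above. Of the 29 pairs of neighbours in the order, 16 had control ranges that did not overlap. The order depends on the measure. Deposited FPKM was 0.884 to 11.8 times the library-scaled count (CPM, defined below) per kilobase of Gencode exon. By CPM per kilobase *Eef2* was again highest (226.6), but *Fat2* (70.1) stood above *Syne1* (43.9), *Stub1* (40.5) and *Atxn10* (20.8). The lowest by that measure was *Tdp1* (1.23), below *Bean1* (2.73), *Atm* (2.21) and *Ccdc88c* (2.05).

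**Figure D1:**
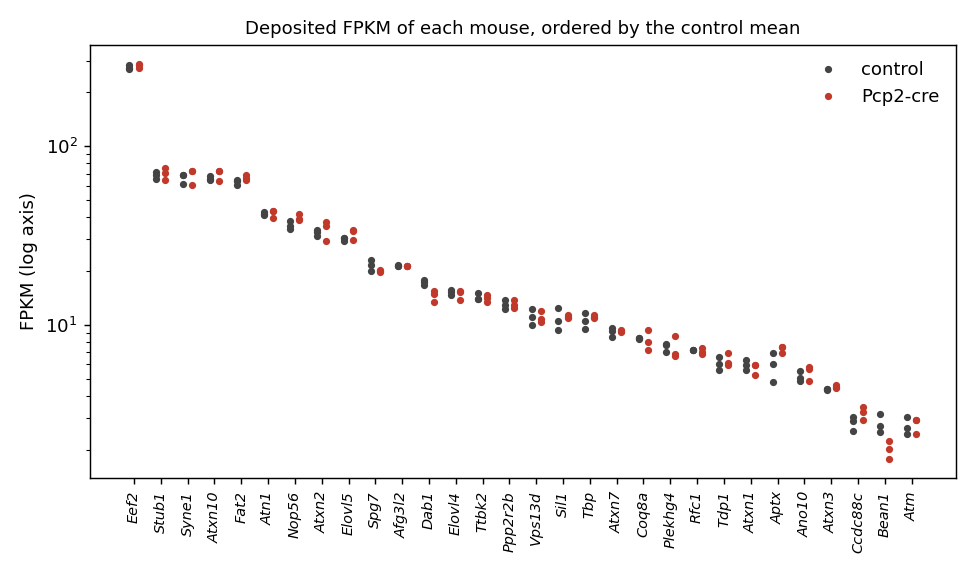
Deposited FPKM of the 30 genes (log axis), ordered by the control mean, with 1 point per mouse (grey, 3 control mice; red, 3 Pcp2-cre mice). *Eef2* stood above all others, and the red points lay below every grey point in *Bean1* and *Dab1*.

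All 30 genes cleared the low-count filter and entered the test. Their control means lay between 12.2 CPM (*Bean1*) and 1781 CPM (*Syne1*), where CPM is the count relative to the library total, scaled by TMM factors. Library totals were 6733178 to 10178218 counts, so 3 counts, taken as the limit of detection, corresponded to 0.295 to 0.446 CPM. The mitochondrial share was 2.37% to 2.66%. Between control mice the coefficient of variation of these genes ranged from 0.776% in *Elovl5* to 13.4% in *Atm*, with a median of 5.41%. Their mean log2 CPM, set against the control mean, stayed between -0.02 and 0.03 in each of the 6 mice.

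Of the 30 genes, 1 was called lower and 0 were called higher in Pcp2-cre mice, where a call asks for both a Benjamini-Hochberg adjusted p no higher than 0.05 in edgeR's quasi-likelihood test and a change of 0.5 or more on the log2 scale. Over all 16961 genes tested, 1.79% were called lower and 1.37% higher. At any fold, 2 of the 30 fell, *Bean1* and *Dab1*, beside 4.75% of all genes, and 0 rose, beside 2.99% (7.74% in either direction). An unadjusted p under 0.05 was found in 3 of the 30, the third being *Atxn7*, beside 18% of all genes. Both directions together, 1 of 30 genes called stood beside 3.17% of all genes. Their median log2 fold change was 0.03, against 0.00 over all genes, with 20 above and 10 below 0. In size the median was 0.06 on the log2 scale, beside 0.09 for all genes tested.

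The precision allowed narrow limits for most of the others, in RNA of whole cerebellum. A change confined to Purkinje cells would be diluted in genes that other cell types also express. RNA of Purkinje cells alone was not measured. For 29 of the 30 genes the log2 fold change was under 0.2 in size, and the standard errors ran from 0.0343 to 0.144. The 95% interval lay within 0.25 of zero in 20 genes and within 0.5 of zero in 29, with *Bean1* as the exception. In CPM the genotypes did not overlap in 1 gene that was lower, *Bean1*, and 1 that was higher, *Atxn7*, beside 11.4% and 10.9% of all genes (22.3% in either direction).

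**Figure D2:**
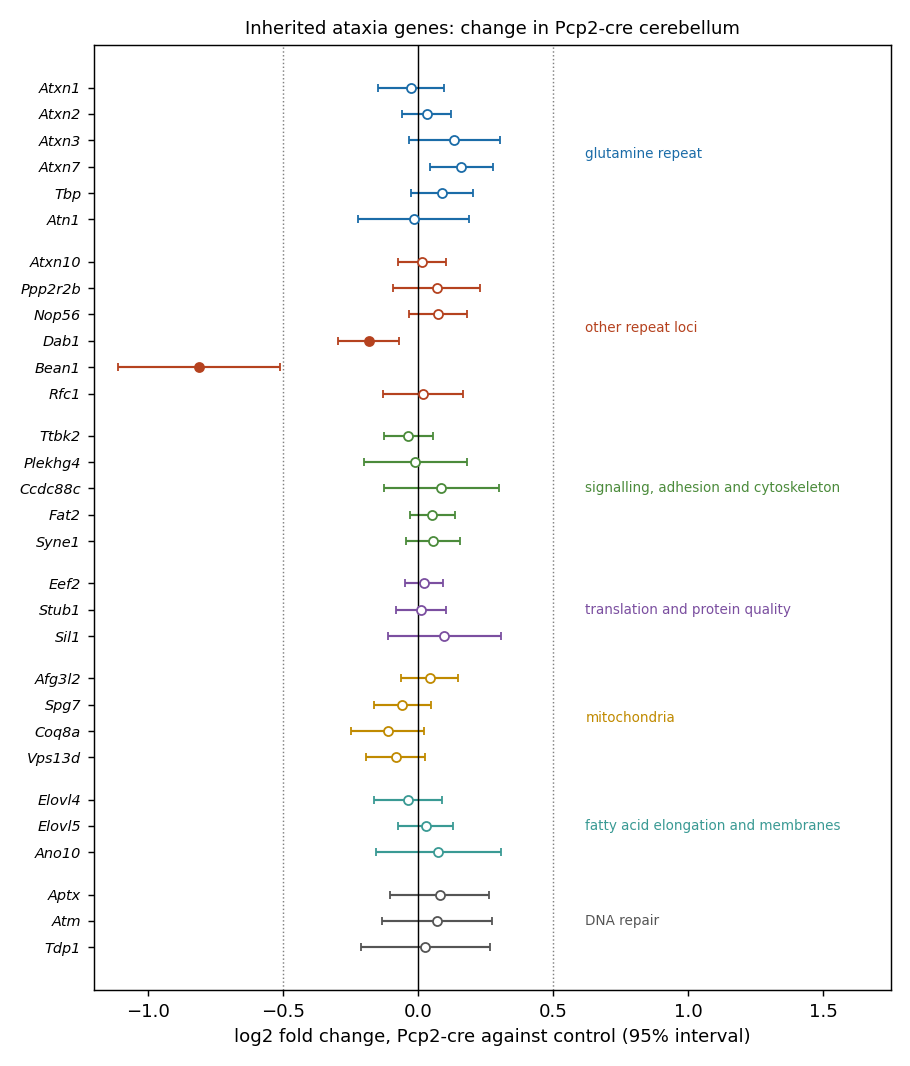
log2 fold change of each gene in Pcp2-cre against control mice (n = 3 each) from the edgeR fit, with 95% intervals, grouped by role. Filled points have an adjusted p of at most 0.05 (*Bean1* at -0.81 and *Dab1* at -0.18), and dotted lines mark a change of 0.5 in size.

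*Bean1* encodes a membrane protein named for its association with the ubiquitin ligase NEDD4, and a repeat inserted in the human gene causes spinocerebellar ataxia. The mouse gene (ENSMUSG00000031872) lies at chr8:104897045-104945754 on the plus strand of GRCm39. Its counts were low, 84, 89 and 132 in control mice and 56, 58 and 47 in Pcp2-cre mice. Scaled to the library, control mice 1, 2 and 3 had 10.4, 13.2 and 13.0 CPM. Pcp2-cre mice 1, 2 and 3 had 7.35, 6.67 and 6.92 CPM. Every Pcp2-cre mouse was below every control mouse, and the Pcp2-cre mice lay closer together than the controls.

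The group means of *Bean1* were 12.2 ± 1.54 CPM (control) and 6.98 ± 0.344 CPM (Pcp2-cre; SD, n = 3 each), or 0.571 of the control level in the fit. The log2 fold change was -0.81 (SE 0.144, 95% interval -1.11 to -0.51), with an edgeR adjusted p of 0.000631. The direction was the same in the deposited FPKM, with 2.53, 2.70 and 3.18 in control and 2.25, 1.78 and 2.02 in Pcp2-cre mice, again without overlap. An exact permutation test on these FPKM values gave p = 0.10, two-sided, the smallest that 3 mice against 3 allow. The FPKM means were 2.80 (control) and 2.02 (Pcp2-cre). With limma on log2(FPKM + 1) the change was -0.33 (adjusted p = 0.168), and on log2(FPKM + 0.1) it was -0.45 (adjusted p = 0.191). Both changes were under 0.5 in size and smaller than in the counts, so the call rests on the counts. The exons of *Bean1* overlap those of the lncRNA *Gm45892* on the opposite strand over 273 bases, and the use of strand in counting is not given in the sources used here.

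The sequence just upstream of *Bean1* is shown because it is the only gene of the 30 that was called. These 150 bases, chr8:104896895-104897044 on the plus strand of GRCm39, end at the base before the first Gencode transcript start and come from the promoter window that RefSeq annotation gives, matched to this build.
Bean1: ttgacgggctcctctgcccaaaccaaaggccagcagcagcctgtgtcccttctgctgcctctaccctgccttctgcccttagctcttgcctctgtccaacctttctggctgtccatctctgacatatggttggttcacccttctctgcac
No base is capitalised, since none of the letter patterns given next lay in this stretch. It held 1 CpG and 56.7% GC, while the whole window of 300 bases (250 before to 50 after the RefSeq start) held 16 CpG and 65.3% GC, against medians of 7 and 52.7% over 32817 windows.

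Short letter patterns were searched on both strands of the 300-base windows, which 24 of the 30 genes had, with 32 windows in all. The GC box GGGCGG had 3 matches in the *Bean1* window, and 65.6% of the windows of these genes and 35.6% of all windows held it. This pattern itself holds a CpG, and the median CpG count was 20 in the windows of these genes and 7 over all windows. The part of base composition in the difference was not tested. AGGTCA, the core site of nuclear receptors such as the Purkinje cell factor RORA, was not in the *Bean1* window and was in 18.8% and 16.3%. The E-box CAGCTG was not in the *Bean1* window either and was in 12.5% and 16.3%.

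*Dab1* encodes the adaptor that passes the reelin signal into migrating neurons, Purkinje cells among them. The gene (ENSMUSG00000028519, chr4:103476556-104602041, plus strand) spans 1125.5 kb and none of its exons overlaps another gene. Control mice 1, 2 and 3 had 102.0, 88.2 and 99.5 CPM, and Pcp2-cre mice 1, 2 and 3 had 89.0, 84.1 and 83.1 CPM. The genotypes overlapped in CPM, since control mouse 2 was below Pcp2-cre mouse 1. The means were 96.5 ± 7.36 and 85.4 ± 3.17 CPM (SD, n = 3 each), and the log2 fold change was -0.18 (SE 0.0538, 95% interval -0.29 to -0.07, edgeR adjusted p = 0.0400).

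The fall of *Dab1* was thus small and close to the threshold. In FPKM the control values of 17.8, 16.6 and 17.3 all lay above the Pcp2-cre values of 14.8, 15.4 and 13.3 (exact permutation p = 0.10, the smallest possible). DESeq2 gave an adjusted p of 0.258 for the same counts. Leaving out control mouse 1, control mouse 3, Pcp2-cre mouse 2 or Pcp2-cre mouse 3 gave edgeR adjusted p of 0.188, 0.129, 0.163 and 0.159, and *Dab1* was lower in 17 of 17 alternative analyses while passing the threshold in 9.

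**Figure D3:**
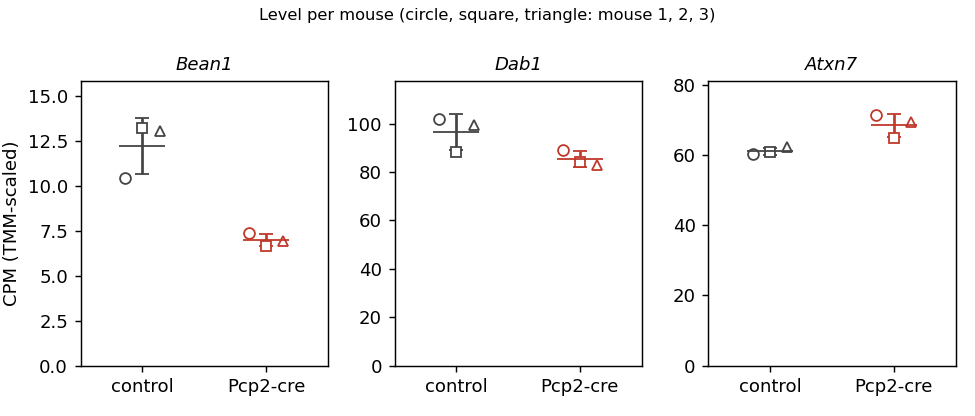
TMM-scaled CPM of *Bean1*, *Dab1* and *Atxn7* in each mouse (circle, square and triangle for mice 1, 2 and 3), with the mean and SD of 3 mice per genotype. The genotypes did not overlap in *Bean1* (lower in Pcp2-cre) and *Atxn7* (higher, adjusted p = 0.0924 in edgeR) and overlapped in *Dab1*.

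Among the 6 glutamine repeat genes 0 passed the adjusted threshold, and their median log2 fold change was 0.06. *Atxn7*, a subunit of the deubiquitinating module of the SAGA complex, had control values of 60.3, 60.7 and 62.2 CPM and Pcp2-cre values of 71.3, 64.8 and 69.2 CPM. Each Pcp2-cre mouse was above each control mouse, with a log2 fold change of 0.16 (95% interval 0.04 to 0.28, unadjusted p = 0.0091 and adjusted p = 0.0924 in edgeR). In FPKM the same gene overlapped between genotypes, with 9.56, 9.19 and 8.52 against 9.28, 9.38 and 9.15 (exact permutation p = 0.80).

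*Atxn3*, a deubiquitinase, had a log2 fold change of 0.13 (95% interval -0.03 to 0.30), and its CPM overlapped between genotypes. *Tbp*, the TATA-binding subunit of the basal transcription machinery, had 0.09 (95% interval -0.02 to 0.20). *Atxn1*, a nuclear corepressor partner, *Atxn2*, an RNA-binding protein, and *Atn1*, another corepressor, stood at -0.03, 0.03 and -0.02. The counts of *Atn1* are uncertain, because 3874 of its 5265 exon bases are shared with *Gm45234* on the same strand. Its deposited FPKM was 11.8 times its CPM per kilobase of exon, where the median of the 30 genes was 1.74 and the next highest, *Sil1*, 5.65. For *Tbp*, 42.7% of exon bases overlap genes on the opposite strand.

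Of the 6 genes with repeats outside the glutamine tracts, *Bean1* and *Dab1* fell and the other 4 did not pass the threshold. *Nop56*, a core protein of the particles that guide RNA methylation, had a log2 fold change of 0.07 and rested on mean levels of 80.0 (control) and 84.2 CPM (Pcp2-cre). *Ppp2r2b*, a brain regulatory subunit of protein phosphatase 2A, also had 0.07. *Atxn10* and *Rfc1*, the large subunit of the clamp loader of DNA replication, both had 0.02, with 95% intervals of -0.07 to 0.10 and -0.13 to 0.17.

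Signalling, adhesion and cytoskeletal genes, 5 in number, had log2 fold changes between -0.03 and 0.09, and 0 of them passed the adjusted threshold. *Fat2* had 1026, 943 and 1050 CPM in control mice and 1009, 1044 and 1082 CPM in Pcp2-cre mice, a log2 fold change of 0.05 (95% interval -0.03 to 0.14). *Syne1* had 1911, 1806 and 1625 CPM in control mice, and 1947, 1877 and 1728 CPM were found in Pcp2-cre mice. In both genes the genotypes overlapped, and in *Syne1* the lowest value of each genotype was that of the female mouse. *Syne1* had a log2 fold change of 0.06 and an edgeR adjusted p of 0.62. Without control mice 1 and 2 the same test gave 0.19 and an adjusted p of 0.00141 from 1 control mouse. *Ttbk2*, a kinase needed to start cilia, had -0.03, *Plekhg4*, a guanine nucleotide exchange factor, -0.01 and *Ccdc88c*, a Dishevelled-binding protein, 0.09. *Ttbk2* shares 3409 exon bases with a gene on the same strand.

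The 3 genes of translation and protein quality showed no called change. The control values of *Eef2*, 859, 885 and 844 CPM, overlapped the Pcp2-cre values, 867, 873 and 889 CPM, with a log2 fold change of 0.02 (95% interval -0.05 to 0.09). *Stub1* had 0.01 (95% interval -0.08 to 0.10), with 93.6% of its exon bases overlapping genes on the opposite strand. *Sil1*, the nucleotide exchange factor of the endoplasmic reticulum chaperone BiP, had 0.10 (95% interval -0.11 to 0.31).

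In the mitochondrial group 0 of 4 genes passed the threshold, and the median log2 fold change was -0.07. *Coq8a*, which is needed to make coenzyme Q, had control values of 54.2, 54.9 and 52.9 CPM and Pcp2-cre values of 46.3, 53.3 and 49.8 CPM. Its ranges overlapped through Pcp2-cre mouse 2, and its log2 fold change was -0.11 (95% interval -0.25 to 0.02, edgeR adjusted p = 0.398). *Vps13d*, a lipid transfer protein, had -0.08, and *Spg7* and *Afg3l2*, the subunits of 1 protease of the inner mitochondrial membrane, had -0.06 and 0.04.

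Of the lipid genes, *Elovl4* and *Elovl5*, elongases of very long and of polyunsaturated fatty acids, had log2 fold changes of -0.04 and 0.03. *Ano10*, a membrane protein of the anoctamin family, had 0.08. The 3 DNA repair genes *Aptx*, which removes abortive ligation ends, *Atm*, the kinase that signals double-strand breaks, and *Tdp1*, which frees topoisomerase from DNA, had 0.08, 0.07 and 0.03. Their 95% intervals were wider than those of more abundant genes, -0.10 to 0.26 for *Aptx*, -0.13 to 0.28 for *Atm* and -0.21 to 0.27 for *Tdp1*. In all 6 genes the CPM of the genotypes overlapped.

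The deposited FPKM did not separate the same genes as the counts did. In FPKM the genotypes did not overlap in 2 of the 30 genes that were lower, *Bean1* and *Dab1*, beside 8.47% of all genes tested. They did not overlap in 4 that were higher, *Aptx*, *Atxn3*, *Fat2* and *Nop56*, beside 11.3%. *Aptx* had 4.78, 6.06 and 6.91 FPKM in control and 6.96, 7.46 and 7.51 FPKM in Pcp2-cre mice. Its limma fold change on log2(FPKM + 1) was 0.28 with an adjusted p of 0.366, and in CPM its genotypes overlapped.

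Ataxia genes outside the set served as a comparison. Of 18 channel, calcium and synaptic ataxia genes 17 were tested. Of the 17, 6 were called lower and 0 higher, beside 1.79% and 1.37% of all genes tested. At any fold 10 fell, beside 4.75% of all genes. The median log2 fold change of the 17 was -0.31, against 0.03 in the 30 genes. Those called included *Itpr1*, the IP3 receptor of the calcium store, and *Car8*, its binding partner. *Itpr1* stood at 3570 ± 208 CPM in control mice and at 1808 ± 46.2 CPM in Pcp2-cre mice (SD, n = 3 each), a log2 fold change of -0.98. The log2 fold change of *Car8* was -0.96. These genes were listed with the fall of channel genes in these mice already known, so their count is no independent evidence, and the difference between the lists was not tested.

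A second list of 28 further inherited ataxia genes, such as those of Friedreich ataxia and of peroxisomal and lysosomal disorders, held 27 that were tested. Of these, 0 were called, beside 3.17% of all genes tested. At any fold 0 passed the adjusted threshold in edgeR, beside 7.74%. An unadjusted p under 0.05 was found in 7 of the 27, beside 18% of all genes. The median log2 fold change of the list was 0.01. DESeq2 also called 0. Of 39 paralogs and partners of the 30 genes, 38 were tested, 0 were called and 1 fell at any fold, beside 4.75% of all genes. The median was -0.02, and DESeq2 called 0. An unadjusted p under 0.05 was found in 5 of the 38, beside the same 18% of all genes.

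**Figure D4:**
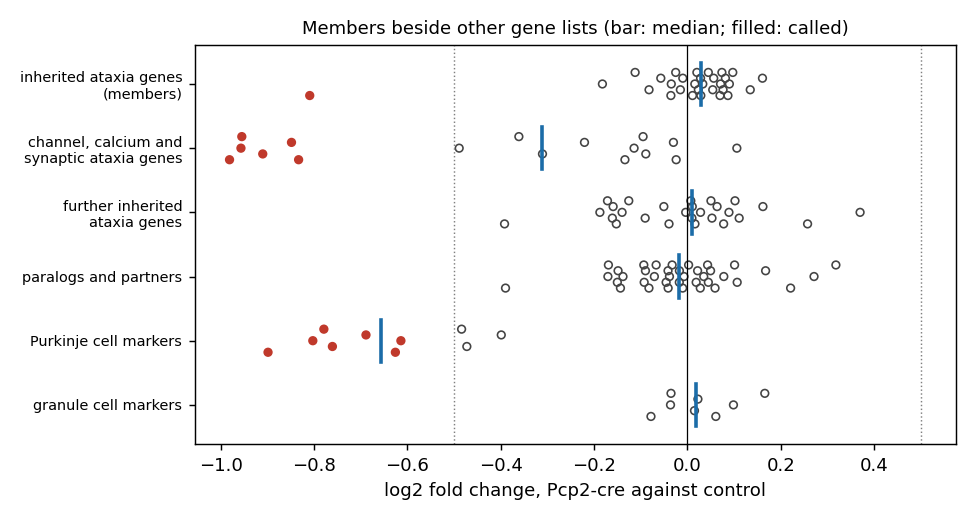
log2 fold change in Pcp2-cre against control mice of each tested gene in 6 lists (1 point per gene, filled where called, blue bar at the median). The 30 inherited ataxia genes lie around their median of 0.03 apart from *Bean1*, beside medians of -0.31 for channel, calcium and synaptic ataxia genes and -0.66 for Purkinje cell markers.

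Cell type markers moved with the genotype, and their part in the changes of *Bean1* and *Dab1* was not tested. All 10 Purkinje cell markers fell at any fold, 7 were called lower, and their median log2 fold change was -0.66. Their levels summed to 3081 to 3369 CPM in control mice and to 1916 to 2209 CPM in Pcp2-cre mice. *Bean1*, at -0.81, lay inside the range of these markers, -0.90 to -0.40, and *Dab1* lay outside it. In whole tissue fewer Purkinje cells and less RNA per Purkinje cell cannot be told apart. The 8 granule cell markers had a median of 0.02 and summed levels of 4292 to 4431 and 4395 to 4516 CPM, and the 6 molecular layer interneuron markers a median of -0.06 and sums of 1429 to 1486 and 1369 to 1437 CPM. No Purkinje or granule cell marker was at 0 in any mouse.

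Glial markers rose in part. Of 8 microglial markers 6 were called higher, their median being 1.41 on the log2 scale. Their summed levels were 107.5 to 108.3 CPM in control mice and 258 to 282 CPM in Pcp2-cre mice. Of 8 astrocyte and Bergmann glia markers 2 were called higher, *Gfap* by 1.94 and *Aqp4* by 0.51 on the log2 scale, and the median was 0.11. At any fold 4 rose and 2 fell, *Gdf10* at -0.25 and *Septin4* at -0.22, which are named after their values were seen. Their sums were 1559 to 1610 and 2012 to 2081 CPM, to which *Gfap* gave 120.7 CPM on average in control and 461.5 CPM in Pcp2-cre mice. The 6 oligodendrocyte markers had a median of 0.19 and sums of 3536 to 3749 and 4140 to 4352 CPM, with 4 higher at any fold.

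Choroid plexus markers stood high in control mice 1 and 2 and low in control mouse 3. All 5 that were tested of 8 were called lower in Pcp2-cre mice. Their median was -3.67 on the log2 scale, and the sum of the 8 ranged from 20.04 to 1238 CPM in control mice and from 10.9 to 76.9 CPM in Pcp2-cre mice. The fits given next changed how choroid plexus RNA entered, but its part in the change of *Bean1* was not tested on its own. Without control mice 1 and 2 the log2 fold change of *Bean1* was -0.90 (edgeR adjusted p = 0.000452), a fit with 1 control mouse that takes its spread from the Pcp2-cre mice. With a choroid plexus score in the fit of all 6 mice the log2 fold change of *Bean1* was -0.88 (edgeR adjusted p = 0.00164). That score in part followed genotype. Set against the control mean, it was 1.17, 1.76 and -2.93 in control mice 1, 2 and 3. In Pcp2-cre mice 1, 2 and 3 it was -3.32, -2.91 and -1.96. Among male mice alone, which leaves 2 per genotype, *Bean1* had -0.74 with an adjusted p of 0.00841 and *Dab1* -0.14 with 0.269 in edgeR.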

How the data were processed

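Poly A RNA of 6 whole cerebella had been sequenced as paired reads, which the authors trimmed, aligned to GRCm39 with STAR and summarised over Gencode genes with featureCounts and StringTie. The authors deposited a table of raw counts and another of FPKM. Tool versions, strand use, the Gencode release and the handling of reads with several matches are not given in the sources used here.

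Genotype, sex and mouse number came from the labels. The test was edgeR 4.0.16 under R 4.3.3, with filterByExpr, TMM factors, the quasi-likelihood fit and Benjamini-Hochberg adjustment over 16961 genes. Alternatives were DESeq2 1.42.0, its size factors, no filter, a minimum of 10 counts per mouse, the mouse number as a replicate block, a covariate (sex, or a score of choroid plexus markers), limma 3.58.1 on log2(FPKM + 1) and log2(FPKM + 0.1), fold thresholds of 0.25 and 1, each mouse left out, and, added after seeing the data, male mice only and control mice 1 and 2 left out. Scripts were tested on simulated counts. Replicates differed by more than sampling noise (chi-square per gene 1.38 to 3.62) and all were kept as separate samples. The labels call them separate mice.

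The 30 genes and the other lists were chosen with earlier results of these data known. Every one of the 30 was named, with values in every mouse for those past the adjusted threshold, and of the other lists at most the 5 called genes with the largest change. Some items are not reported here. Other genes given per-mouse values were chosen after their values were seen. Positions, exons and sequences came from Gencode M39 and GRCm39, and promoter windows from RefSeq (GRCm38.p6).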

Additional observations from a re-analysis of the deposited data

How the results depend on the processing

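With limma on log2(FPKM + 1) and on log2(FPKM + 0.1), 0 of the 30 genes were called lower and 0 passed the adjusted threshold at any fold, and all genes called numbered 155 and 167 lower and 126 and 144 higher, against 304 and 233 in edgeR on counts. DESeq2 called 144 genes higher. At a fold threshold of 1, 0 of the 30 genes were called lower. Members lower at an adjusted p of at most 0.05 numbered 1 with DESeq2, 1 in male mice only and 1 to 2 with each mouse left out, against 2, the gene lost being *Dab1*. Members higher numbered 1 (*Syne1*) with control mice 1 and 2 left out, which leaves 1 control mouse assumed to vary like the other mice. *Bean1* was lower in 17 of 17 alternatives and passed the adjusted threshold in 15, with log2 fold changes of -0.91 to -0.75 when a mouse was left out. Its adjusted p over these alternatives ran from 7.57e-06 to 0.191, and that of *Dab1* from 0.00403 to 0.269. The FPKM fits gave *Bean1* -0.33 and -0.45 with adjusted p of 0.168 and 0.191. The cause was not tested. *Bean1* and *Dab1* kept their direction in every alternative run, while several genes that were not called changed sign around 0, such as *Ccdc88c* from 0.09 to -0.07 in male mice only and *Vps13d* from -0.08 to 0.02 without control mice 1 and 2.

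Mouse numbers were treated as names. In their deviations from the genotype mean, same-numbered mice correlated at 0.041, 0.056 and 0.166, and differently numbered mice at -0.111 to 0.073. The highest value, 0.166, was that between the female mice. With the replicate block all genes called were 319 lower and 229 higher and *Bean1* had -0.81 (adjusted p = 0.00114). The median of the 30 genes stayed between 0.01 and 0.04 under every alternative run. The depth limits low genes: *Bean1*, with 47 to 132 counts, had the widest standard error.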
